A study of Mus musculus with 10 samples.

Results

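Heat shock factors and chaperones were followed by RNA-seq through the first cleavages of mouse embryos with and without Ago2. This gene encodes an Argonaute protein that is guided by small RNAs to target mRNAs. The set held 10 genes, taken by gene name from the expression table of 21437 genes: the transcription factors Hsf1 and Hsf2, the HSP70 genes Hspa1a, Hspa1b, Hspa8 and Hspa2, the HSP90 genes Hsp90aa1 and Hsp90ab1, the HSP110 gene Hsph1 and the mitochondrial co-chaperonin Hspe1. All 10 were in the table. There were 5 groups with 2 libraries each. The groups were wild type MII oocytes collected 16 h post-hCG, control 2-cell embryos at 40 h, Ago2 kd 2-cell embryos at 40 h, control 4-cell embryos at 55 h and Ago2 kd 4-cell embryos at 55 h. The females were 7 weeks old and superovulated. For the knockdown, the methods describe zygotes that received Ago2 siRNA mixed with antibodies to AGO2, and a scrambled siRNA is named as the negative control. A figure legend of the study instead names injection of either the siRNA or the antibodies. Protein blocking and mRNA loss therefore cannot be told apart in the Ago2 kd groups. The labels name the strain ICR for every sample, and the methods name ICR mice for the animal experiments in general but F1 females and males for the collection of embryos, so that the strain of the embryos is uncertain. The number of oocytes or embryos behind a library is not given in the sources used here, nor is it said that replicates came from separate collections, so p-values measure only the spread between these libraries.

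Heat shock factors are transcription factors that bind, as trimers, to heat shock elements made of alternating GAA and TTC units in the promoters of chaperone genes. HSP70 proteins fold and hold client proteins in cycles of ATP hydrolysis, HSP110 proteins such as that of Hsph1 exchange their nucleotide, and HSP90 proteins mature kinases and receptors. Hspe1 encodes the lid of the mitochondrial chaperonin whose barrel is encoded by Hspd1. In mouse embryos Hsf1 is known as a maternal-effect gene, and Hspa1a and Hspa1b are known as early products of zygotic genome activation (ZGA), the start of transcription from the embryo's own genome.

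Promoter sequences are shown for the members that hold a heat shock element, to let the elements be compared. Windows from 250 bases before to 50 bases after the annotated start, from RefSeq on GRCm38.p6, were given for 6 of the 10 members. The other 4, Hsf1, Hspa8, Hsp90aa1 and Hsp90ab1, are named only. The letters GAANNTTC and TTCNNGAA, each of which reads the same on both strands, were searched in these windows. At least 1 of them was found in 4 members, Hspa1a, Hspa1b, Hspe1 and Hsph1, and in neither Hsf2 nor Hspa2. Over all 32851 windows the share with at least 1 of these forms was 15.06%. For Hspa2 the 250 upstream bases, chr12:76404120-76404369, overlap an exon of Hspa2 itself, whose GENCODE annotation starts at 76404176. Little of the sequence before that start was therefore searched. Runs of 3 alternating units, in which both forms overlap, were found for Hspe1 and Hsph1 and in 0.6% of all windows. A match is a description of the letters and not a bound site. In the sequences, written 5′ to 3′ on the strand of the gene, capitals mark the matched letters. The 250 bases upstream of the HSP70 pair are at chr17:34972157-34972406 (Hspa1a, minus strand) and chr17:34959239-34959488 (Hspa1b, minus strand). They overlap no annotated exon.
Hspa1a: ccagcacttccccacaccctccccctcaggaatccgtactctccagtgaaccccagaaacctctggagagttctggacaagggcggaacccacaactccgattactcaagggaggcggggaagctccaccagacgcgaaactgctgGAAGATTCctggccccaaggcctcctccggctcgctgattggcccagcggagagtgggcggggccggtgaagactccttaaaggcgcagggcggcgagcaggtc
Hspa1b: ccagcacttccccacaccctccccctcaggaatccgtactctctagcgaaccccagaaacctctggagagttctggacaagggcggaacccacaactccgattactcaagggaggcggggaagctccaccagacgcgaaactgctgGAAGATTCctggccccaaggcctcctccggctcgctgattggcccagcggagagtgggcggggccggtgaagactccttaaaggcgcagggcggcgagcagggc

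The 2 windows were identical at 247 of 250 positions (98.8%), and the element GAAGATTC began at position -104 in both. In the promoter that Hspe1 shares, head to head, with Hspd1, overlapping matches formed 1 run of alternating units that began at position -89 from the Hspe1 start. This stretch, at chr1:55088053-55088082 on the plus strand, also lies in an annotated exon of Hspd1. For Hsph1, the form TTCNNGAA began at position -54 from 1 annotated start and at -33 from another. A 3-unit match began at position 16 and 37 from the same starts, inside an Hsph1 exon, at chr5:149636279-149636308 on the minus strand.
Hspe1: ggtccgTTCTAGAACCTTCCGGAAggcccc
Hsph1: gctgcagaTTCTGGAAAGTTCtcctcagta

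The values were FPKM, that is, fragments scaled for the length of a gene and the mapped fragments of its library. The read depth is unknown, and FPKM are relative to the other RNA of the same library, so that fewer transcripts per embryo and more of other transcripts cannot be told apart. The FPKM of a library summed to between 178681 and 458874, with both highest sums in the MII oocytes, and 40.2 to 52.2% of the genes were listed at exactly 0. An exact 0 may be a failed estimate, since Rpl3, a ribosomal protein gene of every cell, was listed at 0 in 9 of 10 libraries. Replicate 1 of the 4-cell Ago2 kd group stood apart, because 14.6% of the genes above 10 FPKM in its partner were below 0.1 FPKM in it, against at most 5.81% in any other library. In 193 genes both 2-cell Ago2 kd libraries held the identical value, and such a value was used once in the tests. The 8 oocyte markers summed to 5412 to 6358 FPKM in the MII oocytes, where the defining marker Zp1 was at 0 and 0.569 FPKM, and to 78.0 to 121 FPKM in the 4-cell control embryos. The 2-cell markers found, 5 of 10, summed to 544 to 626 FPKM in the 2-cell control embryos and to at most 6.76 FPKM in the 4-cell control embryos. In 2-cell Ago2 kd embryos they summed to 231 to 395 FPKM, below both controls. Of these markers Tcstv3 and Usp17la were below both controls, and Zfp352, Zscan4d and Zscan4e overlapped them. Tcstv3 was listed at 134.1 FPKM in both knockdown libraries and entered both sums. The part of this difference in the 2-cell knockdown results was not tested. Of 11 cumulus and granulosa cell markers 2 were in the table, Amhr2 and Foxl2, and both were at 0 in the oocytes and in all 2-cell libraries.

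Together the 10 genes took 0.101 to 0.256% of the summed FPKM in MII oocytes, 0.0763 to 0.097% in 2-cell control embryos and 0.416 to 0.436% in 4-cell control embryos. Hsp90ab1 was the highest member in 9 of 10 libraries and Hsp90aa1 in the remaining library, replicate 1 of the MII oocytes. By contrast, 4 members (Hsf2, Hspa1a, Hspa1b and Hspa8) never reached 3 FPKM.

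**Figure D1:**
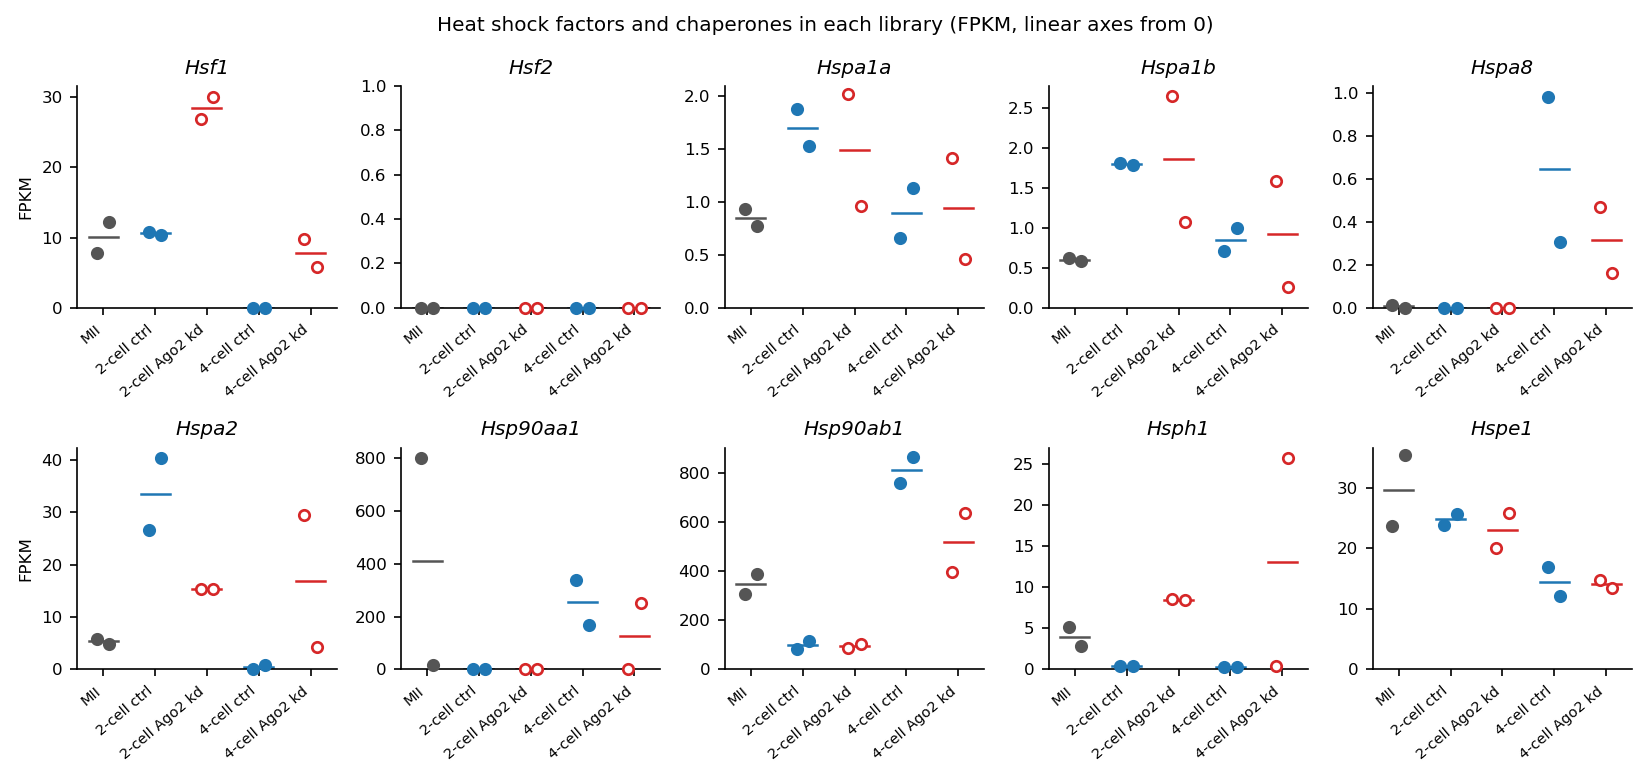
FPKM of each member (y axis, linear and from 0, with its own range per gene) in the 5 groups (x axis). Each point is a library, filled for oocytes and control embryos and open for Ago2 kd embryos, and each bar is the mean of the group. Hsf1 was listed at 0 in both 4-cell control libraries only, Hsf2 was listed at 0 in all 10, Hspa2 shows the same value for both 2-cell Ago2 kd libraries, and the bars of Hsp90aa1 and Hsph1 lie far from their points where replicates disagree.

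The first question was which of these genes changed over development in control embryos. From MII oocytes to 2-cell control embryos Hsp90ab1 fell, and the other 7 members tested did not pass the test. From 2-cell to 4-cell control embryos Hsp90ab1 rose, and Hsf1 and Hspa2 fell. Differences were tested with limma on log2(FPKM + 1) over the 8726 genes that reached 1 FPKM in 2 or more libraries, and a gene was called at an adjusted p below 0.05. This filter kept 8 of the 10 members and left out Hsf2 and Hspa8. Called genes numbered 1 of 8 members between MII oocytes and 2-cell control embryos, where 20.7% of all genes tested were called. Between 2-cell and 4-cell control embryos 3 of 8 members were called (1 higher, 2 lower), where 38.5% of all genes tested were called. These shares do not set the members apart from other genes.

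The next question was whether knockdown of Ago2 changed them. At the 2-cell stage 0 of 8 members were called, against 0.539% of all genes tested, and 1 of them, Hsf1, had an unadjusted p below 0.05, against 5.8% of all genes. At the 4-cell stage 1 of 8 members was called, Hsf1, which was higher in Ago2 kd embryos, against 3.91% of all genes. Members with an unadjusted p below 0.05 at this stage were Hsf1 and Hspa2, 2 of 8 against 15.3% of all genes. The knockdown effects at the 2 stages differed in 0 of 8 members after adjustment, against 2.25% of all genes, and in 2 of 8, Hsf1 and Hspa2, at an unadjusted p below 0.05, against 13.2%. The knockdown comparisons and the comparison of the stages share their control libraries and are not independent of each other.

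**Figure D2:**
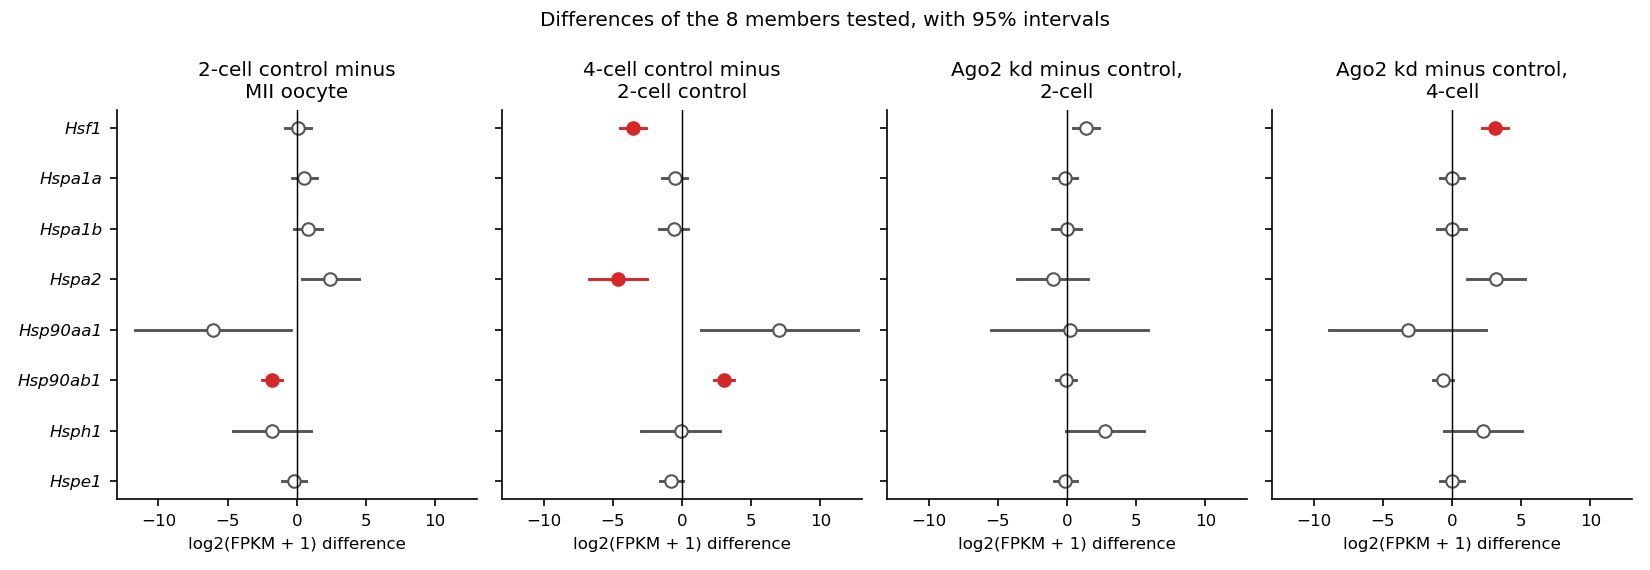
Differences on the log2(FPKM + 1) scale (x axis) of the 8 members tested (y axis) in 4 comparisons, with 95% confidence intervals from limma as lines. Filled red points passed an adjusted p of 0.05. Hsp90ab1, Hsf1 and Hspa2 passed in at least 1 comparison, the intervals of Hsp90aa1 are the widest in every panel, and both Hsf1 points that involve 4-cell control embryos are set against values listed at 0, so that their size depends on the pseudocount.

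Hsf1, the main activator of the heat shock response (chr15:76477422-76501913, plus strand, 13 exons in its longest coding transcript), had 7.77 and 12.2 FPKM in MII oocytes and 10.8 and 10.4 FPKM in 2-cell control embryos. In 4-cell control embryos it was listed at 0 in both libraries. The level thus did not differ between oocytes and 2-cell control embryos beyond the spread, with a log2 difference of 0.11 and a 95% interval of -0.84 to 1.05 (adjusted p = 0.963). It was called lower in 4-cell than in 2-cell control embryos (adjusted p = 8.06e-04).

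After knockdown Hsf1 had 26.9 and 30.1 FPKM at the 2-cell stage, above both controls. At the 4-cell stage the Ago2 kd libraries had 9.80 and 5.75 FPKM, where both controls were listed at 0. The 2-cell difference of 1.34 log2 units (SE 0.40, adjusted p = 0.452, unadjusted p = 0.0122) was not called. The 4-cell difference was called (adjusted p = 0.0073), and over the alternative analyses that kept the zeros its adjusted p ran from 8.52e-04 to 0.261. The call was lost when only the 4 libraries of the 4-cell stage were used (adjusted p = 0.261). In that setting 0 of all 8726 genes were called in this comparison, and the lowest adjusted p (limma) was 0.157. The loss is thus not particular to Hsf1. Without the exact zeros the Hsf1 difference could not be tested. Ordered by mean, the levels of Hsf1 were 28.5 FPKM in 2-cell Ago2 kd embryos, 10.6 in 2-cell control embryos, 10.01 in MII oocytes, 7.77 in 4-cell Ago2 kd embryos and 0 in 4-cell control embryos. The values of MII oocytes overlapped those of both their neighbours in this order, and the other neighbours did not overlap. The 8 oocyte markers summed to 159 to 296 FPKM in 4-cell Ago2 kd embryos against 78.0 to 121 FPKM in the controls. Dppa3 carried most of that sum, at 132 and 292 FPKM against 115 and 76.6 FPKM, and was the only oocyte marker above both controls in both knockdown libraries. Gdf9 and Nlrp5 overlapped between the groups, Zp3 was above 0 in 1 knockdown library only, Zp2 in 1 control library only, and the defining markers Zp1, Bmp15 and Zar1 were at 0 in all 4 libraries. Of the 5 2-cell markers found, Tcstv3 and Zfp352 were higher in both knockdown libraries than in both controls and the other 3 were at 0 in all 4 libraries, with sums of 22.01 to 27.0 against 1.62 to 6.76 FPKM. The part of these markers in the Hsf1 result was not tested.

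Hsf2, a second heat shock factor with roles in germ cells (chr10:57486385-57513135, plus strand), was listed at 0 in all 10 libraries. No level can be given for it beyond that, since other widely used genes are listed at 0 as well.

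Profiles of the tested genes were ranked by Pearson's r of log2(FPKM + 1) with Hsf1 over the 10 libraries. The 125 tested genes with identical 2-cell Ago2 kd values were left out. The genes most like Hsf1 were 2610002M06Rik (r = 0.97), Gm15698 (0.958), Ap1s2 (0.922), Dhrs11 (0.915) and Drap1 (0.911). These are descriptions over libraries that fall into 5 groups of 2. Dhrs11 shared the zeros, at 0 FPKM in both 4-cell controls and at 3.31 and 1.04 FPKM after knockdown. Gm15698 was far more abundant, at 34.4 and 33.4 FPKM in the 4-cell controls and 137 and 123 FPKM after knockdown. Both were chosen for their likeness to Hsf1, so that their low 4-cell control values are a description and support nothing about Hsf1.

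Hspa1a and Hspa1b, the stress-inducible HSP70 genes, are neighbours without introns (chr17:34969190-34972156 and chr17:34956436-34959238, both on the minus strand). Their coding sequences were identical at 1915 of 1926 aligned positions (99.4%), so that reads can be split between them and their separate levels are uncertain. Hspa1a had 0.927 and 0.767 FPKM in MII oocytes, 1.87 and 1.52 in 2-cell control embryos and 0.661 and 1.13 in 4-cell control embryos. Hspa1b had 0.623 and 0.581 FPKM in MII oocytes, 1.82 and 1.79 in 2-cell control embryos and 0.707 and 1.002 in 4-cell control embryos. Both genes thus had their highest control values at the 2-cell stage, and the 2-cell control libraries overlapped neither the oocytes nor the 4-cell controls. Neither step was called for either gene, with log2 differences of 0.55 (SE 0.38, adjusted p = 0.391) and 0.81 (SE 0.44, adjusted p = 0.27) from oocyte to 2-cell embryo. A pair of groups did not overlap in either direction for 62% of all genes tested in that comparison and for 68.6% from the 2-cell to the 4-cell stage.

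The Hspa1a values after knockdown were 2.01 and 0.963 FPKM at the 2-cell stage and 1.41 and 0.464 FPKM at the 4-cell stage. The Hspa1b values were 2.66 and 1.08 FPKM at the 2-cell stage and 1.60 and 0.263 FPKM at the 4-cell stage. At both stages the knockdown libraries lay on both sides of the controls or further apart than them. The intervals of the knockdown difference ran from -1.04 to 0.75 and from -0.89 to 0.89 log2 units for Hspa1a, and from -1.07 to 1.02 and from -1.07 to 1.01 for Hspa1b, at the 2-cell and 4-cell stage. The ratio of Hspa1b to Hspa1a stayed between 0.568 and 1.32 in the 10 libraries. Hspa1b was also the gene with the profile most like that of Hspa1a (r = 0.964 over 10 libraries), followed by Teddm2 (0.897), Tdpoz3 (0.89), Gm6089 (0.885) and Vcl (0.86), and the sequence that the pair shares is part of what this r holds. Tdpoz3 had 45.4 and 66.7 FPKM in 2-cell control embryos and was at 0 in both oocyte libraries.

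Hspa8, the constitutive HSP70 that most cells make in large amounts (chr9:40800984-40810087, plus strand), was listed at 0 in 5 of 10 libraries and never passed 1 FPKM. It had 0.0141 and 0 FPKM in MII oocytes and was listed at 0 in all 4 libraries of 2-cell embryos. The 4-cell control libraries held 0.982 and 0.305 FPKM, and the 4-cell Ago2 kd libraries 0.468 and 0.162 FPKM. These values may not be the level of the gene, since reads of near-identical copies can be assigned to either locus.

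In the GENCODE M21 annotation 10 other genes were at least 90% identical to the longest Hspa8 coding transcript over at least 50% of its length, and 9 of them were processed pseudogenes. Among these, Gm15459, whose whole length aligned to Hspa8 at 99.7% identity, had 54.6 and 48.7 FPKM in MII oocytes, 20.6 and 33.9 in 2-cell control embryos and 584 and 527 in 4-cell control embryos. In Ago2 kd embryos it had 14.1 and 23.2 FPKM at the 2-cell stage and 460 and 466 FPKM at the 4-cell stage. Gm15459 thus exceeded Hspa8 in 10 of 10 libraries. It rose from 2-cell to 4-cell control embryos by 4.34 log2 units (SE 0.35, adjusted p = 2.08e-04), and it was not called from MII oocytes to 2-cell control embryos (-0.94, SE 0.35, adjusted p = 0.109). The knockdown differences were -0.52 (95% interval -1.34 to 0.30) and -0.26 (-1.08 to 0.56) log2 units at the 2-cell and 4-cell stage. Which of the near-identical loci the reads came from cannot be told apart in these values. The copies were looked up after the values of the members had been seen.

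**Figure D3:**
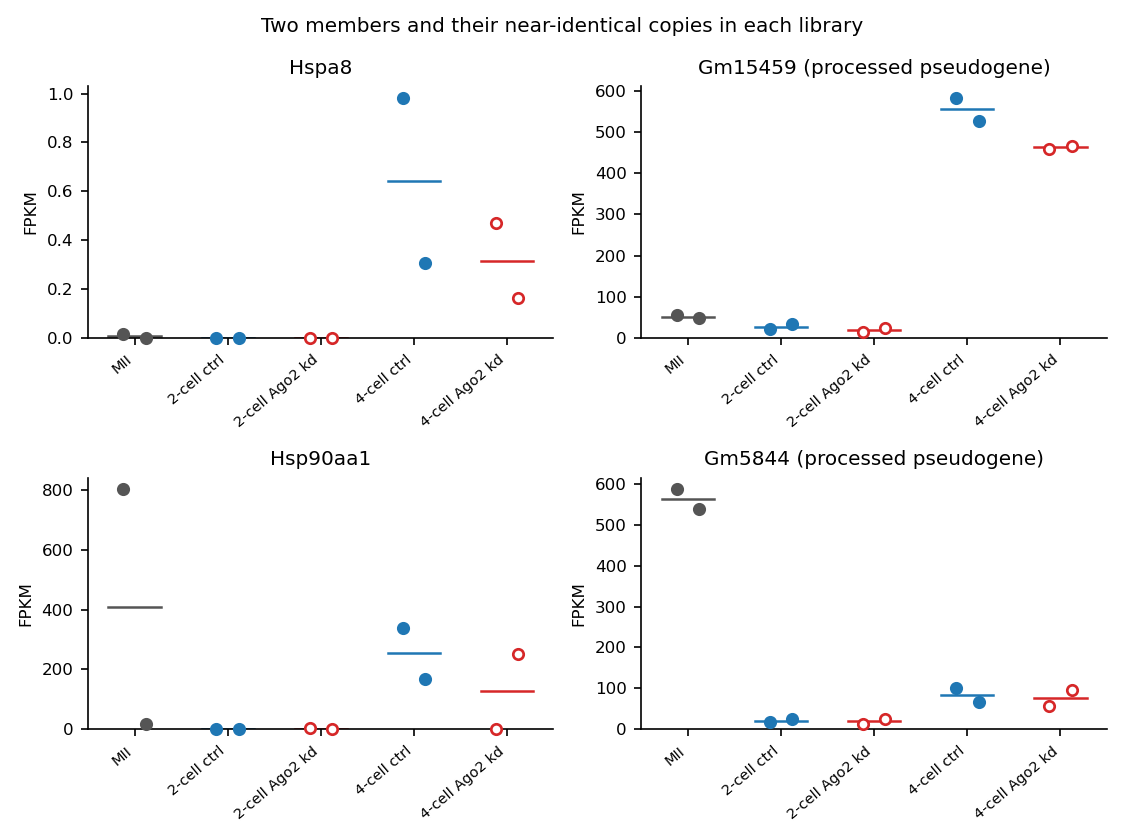
FPKM (y axis, linear and from 0) of Hspa8 and its processed pseudogene Gm15459, and of Hsp90aa1 and its processed pseudogene Gm5844, in the 5 groups (x axis). Each point is a library, open for Ago2 kd embryos, and each bar is the mean of the group. Hspa8 stays below 1 FPKM where Gm15459 reaches 584 FPKM, and Gm5844 is alike in both oocyte libraries (587 and 540 FPKM) whereas Hsp90aa1 is not (801 and 17.5 FPKM).

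Hspa2, an HSP70 best known from spermatogenesis (chr12:76404176-76406938, plus strand), had 5.75 and 4.92 FPKM in MII oocytes, 26.7 and 40.4 FPKM in the 2-cell controls, and 0.0999 and 0.749 FPKM in 4-cell control embryos. Its level in control embryos was thus highest at the 2-cell stage, with no overlap between groups. The rise of 2.42 log2 units from oocyte to 2-cell embryo (SE 0.85, adjusted p = 0.106) was not called, although it passed with only the groups compared (adjusted p = 0.0282) and without replicate 1 or replicate 2 of the 4-cell Ago2 kd group (adjusted p = 0.0206 and 0.0201). From the 2-cell to the 4-cell stage Hspa2 fell by 4.61 log2 units (SE 0.85, adjusted p = 0.0084), and the call held in each alternative run, with an adjusted p of at most 0.0496.

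In Ago2 kd embryos Hspa2 had 15.4 FPKM at the 2-cell stage, where both libraries held the identical value and n was taken as 1, below both controls. At the 4-cell stage it had 29.4 and 4.32 FPKM, above both controls. The 2-cell difference was -1.05 log2 units (SE 1.04, adjusted p of 1) and the 4-cell difference 3.20 (SE 0.85, adjusted p = 0.137). The knockdown libraries of the 4-cell stage differed 6.82-fold from each other, and the higher value came from replicate 1, the library that stood apart. Without that replicate the 4-cell difference was 1.94 log2 units, and without replicate 2 it was 4.46 and called (adjusted p = 0.0119).

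Hsp90ab1, the constitutive HSP90 (chr17:45567775-45573271, minus strand), had 308 and 388 FPKM in MII oocytes, 84.1 and 116 FPKM in the 2-cell controls, and 760 and 867 FPKM in 4-cell control embryos. The 3 stages did not overlap, and the lowest values were those of the 2-cell embryos. From oocyte to 2-cell embryo it fell by 1.80 log2 units (SE 0.30, adjusted p = 0.00695), and the rise to the 4-cell stage was 3.03 (SE 0.30, adjusted p = 5.04e-04). The fall depended on the scaling. It was -0.62 (adjusted p = 0.121) after each library was rescaled to the same total, which raised the median of all genes in this comparison by 0.45, and -0.59 (adjusted p = 0.13) after quantile normalization. Without replicate 2 of the MII oocytes it was -1.63 (adjusted p = 0.0532). The rise was called in every alternative run, at 2.69 to 3.26 log2 units.

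With Ago2 kd, Hsp90ab1 had 88.8 and 102 FPKM at the 2-cell stage, within the range of the controls. At the 4-cell stage it had 398 and 638 FPKM, below both controls. The differences were -0.05 log2 units (95% interval -0.77 to 0.67) and -0.69 (-1.41 to 0.03, adjusted p = 0.351), and neither was called.

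Hsp90aa1, the stress-inducible HSP90 (chr12:110690605-110702728, minus strand), had 801 and 17.5 FPKM in MII oocytes, 0.182 and 1.84 FPKM in the 2-cell controls, and 338 and 170 FPKM in 4-cell control embryos. Its Ago2 kd values were 2.68 and 0.182 FPKM at the 2-cell stage and 1.71 and 253 FPKM at the 4-cell stage. Replicates of 1 group thus differed by up to 148-fold, in 4-cell Ago2 kd embryos, and by 45.8-fold in MII oocytes. The lower 4-cell Ago2 kd value, 1.71 FPKM, came from replicate 1, the library that stood apart. The rise of 7.04 log2 units from 2-cell to 4-cell control embryos was not called (SE 2.39, adjusted p = 0.0553), although it passed in 4 alternatives, among them the model with only the groups compared (adjusted p = 0.0149).

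Its processed pseudogene Gm5844, aligned over 67.1% of the Hsp90aa1 transcript at 98.5% identity, had 587 and 540 FPKM in MII oocytes, 17.8 and 24.3 FPKM in the 2-cell controls, and 100.4 and 67.1 FPKM in 4-cell control embryos. In Ago2 kd embryos it had 13.6 and 25.8 FPKM at the 2-cell stage and 55.8 and 95.5 FPKM at the 4-cell stage. The copy exceeded Hsp90aa1 in 6 of 10 libraries, and its replicates lay close together where those of Hsp90aa1 did not. Gm5844 fell by 4.69 log2 units from oocytes to 2-cell control embryos (SE 0.44, adjusted p = 7.03e-04) and rose by 1.93 to the 4-cell stage (SE 0.44, adjusted p = 0.0131). The summed FPKM of Hsp90aa1 and Gm5844 were 1388 and 557 in MII oocytes, 18.0 and 26.1 in 2-cell control embryos, and 439 and 237 in 4-cell control embryos. Both the sum and the copy were therefore lowest at the 2-cell stage, as was Hsp90ab1. How the reads of these loci were divided cannot be told apart here.

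Hsph1, an HSP110 nucleotide exchange factor of HSP70 (chr5:149614287-149636376, minus strand), had 5.17 and 2.81 FPKM in MII oocytes, 0.419 and 0.409 FPKM in the 2-cell controls, and 0.318 and 0.318 FPKM in 4-cell control embryos. In Ago2 kd embryos it had 8.58 and 8.44 FPKM at the 2-cell stage, and 0.427 and 25.8 FPKM at the 4-cell stage. The 2-cell knockdown libraries were close to each other and far above their controls, whereas the 4-cell knockdown libraries differed 60.4-fold. The knockdown differences were 2.75 log2 units (SE 1.196, adjusted p = 0.91, unadjusted p = 0.0555) and 2.23 (SE 1.196, adjusted p = 0.461), and neither was called. The spread of 1 gene is estimated over all 5 groups, and that of the 4-cell Ago2 kd group enters the 2-cell comparison. Without replicate 1 of that group the 4-cell difference was 4.34 and called, and without replicate 2 it was 0.115. The size of this difference thus depended on which replicate was kept. Replicate 2 had 25.8 FPKM, and the value near the controls, 0.427 FPKM, came from replicate 1, the library that stood apart. Without either replicate of that group the value of Hsph1 from oocyte to 2-cell embryo, -1.78, was called as well, with adjusted p values of 0.0183 and 0.0151. Knockdown groups that lay wholly above or below their controls were found for 3 of 8 members at the 2-cell stage (Hsf1 and Hsph1 higher, Hspa2 lower) and for 4 of 8 at the 4-cell stage (Hsf1, Hspa2 and Hsph1 higher, Hsp90ab1 lower), against 29.1% and 37% of all genes tested.

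Hspe1 (chr1:55088132-55091307, plus strand) had 23.7 and 35.5 FPKM in MII oocytes, 23.9 and 25.6 FPKM in the 2-cell controls, and 16.9 and 12.1 FPKM in 4-cell control embryos. The Ago2 kd values were 20.1 and 25.9 FPKM at the 2-cell stage and 14.7 and 13.4 FPKM at the 4-cell stage. No comparison was called. The 95% interval of the knockdown difference ran from -0.96 to 0.74 log2 units at the 2-cell stage and from -0.87 to 0.83 at the 4-cell stage. The direction from oocyte to 2-cell embryo depended on the scaling, at -0.22 as deposited and 0.95 after rescaling to the same total. From the 2-cell to the 4-cell stage the difference was -0.76 (adjusted p = 0.143), and it was called at -1.06 (adjusted p = 0.0345) with equal medians and at -1.36 (adjusted p = 0.0359) after quantile normalization. Hspd1, its head-to-head neighbour, overlaps Hspe1 on the opposite strand and had 94.5 and 38.3 FPKM in MII oocytes and 34.2 and 0.601 FPKM in 2-cell control embryos. No statement that the counting used strand was found in the sources used here, so reads of the overlap cannot be told apart.

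Of a wider list of 110 heat shock factors, chaperones and co-chaperones, 86 were in the table and 61 were tested. From MII oocytes to 2-cell control embryos 3 of 61 were higher and 6 lower, against 6.53% and 14.2% of all genes tested. The median log2 difference of the list was 0, and that of all genes -0.06. The called genes with the highest rises were Dnajb9, an endoplasmic reticulum J-domain protein (0 and 1.99 FPKM before and 58.8 and 118 FPKM after the step, adjusted p = 0.00222), and Dnajc15 and Bag3, both listed at 0 in the oocytes (adjusted p = 0.0251 and 0.0221). Bag3, an HSP70 partner of the stress response, had 3.20 and 3.08 FPKM in 2-cell control embryos. The called genes with the largest falls were Dnajc3, with 385 and 447 FPKM before the step and values of 0 in both libraries after it (adjusted p = 0.00447), Dnajc21 (-5.20 log2 units, adjusted p = 0.00185) and Hspa14 (-4.58, adjusted p = 0.0356), whose call was lost in 8 alternatives, among them each one that left out an oocyte or a control embryo library. The calls of Dnajc15 and Bag3 were lost in 5 and 4 alternatives.

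From 2-cell to 4-cell control embryos 17 of 61 were higher and 5 lower, against 21.1% and 17.4% of all genes tested, with a median of 1.16 in the list and 0.24 over all genes. Among HSP90 proteins and their co-chaperones 5 of 12 rose and 1 fell, and among J-domain proteins 7 of 27 rose and 2 fell. The highest rises were those of Stip1, which links HSP70 to HSP90 (576 and 473 FPKM in 4-cell control embryos, adjusted p = 0.0271), Hspa4, an HSP110 relative (105 and 147 FPKM, adjusted p = 8.48e-05), and Fkbp4, an HSP90 co-chaperone (93.1 and 154 FPKM, adjusted p = 0.0226). All 3 were listed at 0 in both oocyte libraries and in all 4 libraries of 2-cell embryos. The table as a whole held 4848 genes listed at 0 in all 4 libraries of 2-cell embryos, of which 154 were above 10 FPKM in both 4-cell controls. The largest falls were those of Cdc37l1 (32.0 and 48.4 FPKM in 2-cell control embryos, listed at 0 in both 4-cell controls, adjusted p = 2.12e-04), Hsf2bp, which encodes a binding partner of HSF2 (86.4 and 65.9 FPKM against 3.45 and 2.06 FPKM, adjusted p = 2.86e-04), and Hscb, a mitochondrial J-domain protein (13 and 13.7 FPKM against 1.51 and 0.162 FPKM, adjusted p = 0.0117). The calls of Stip1 and Fkbp4 were lost in 7 alternatives each and that of Hscb in 3. With the exact zeros left out, 14 of the list were called in place of 22. Genes with a whole group at 0, such as Stip1, Hspa4, Fkbp4 and Cdc37l1, cannot be fitted in that setting. Over all genes 2190 of 6445 were called there, in place of 3361 of 8726.

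After knockdown of Ago2, 0 of 61 genes of the wider list were called at the 2-cell stage (limma), against 0.539% of all genes tested, with 3 at an unadjusted p below 0.05 (2 higher, 1 lower), against 5.8%. At the 4-cell stage 0 were higher and 2 lower, against 1.15% and 2.76% of all genes tested. The 2 were Ahsa2, an activator of the HSP90 ATPase (controls at 7.18 and 4.09 FPKM, knockdown at 0.142 and 0.896 FPKM, -2.13 log2 units, adjusted p = 0.0336), and Hsf2bp, for which both knockdown libraries read 0 (adjusted p = 0.0465). The call of Ahsa2 was lost in 13 alternatives and that of Hsf2bp in 12, and Hsf2bp was among the genes that fell between the 2-cell and 4-cell controls. The effects at the 2 stages differed in 0 of 61 genes (limma), against 2.25% of all genes tested, with 9 at an unadjusted p below 0.05 (2 higher, 7 lower), against 13.2%. Neither share sets the list apart from other genes. Stip1 and Fkbp4 were listed at 0 in replicate 1 of the 4-cell Ago2 kd group, the library that stood apart, and had 557 and 93.8 FPKM in replicate 2.

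**Figure D4:**
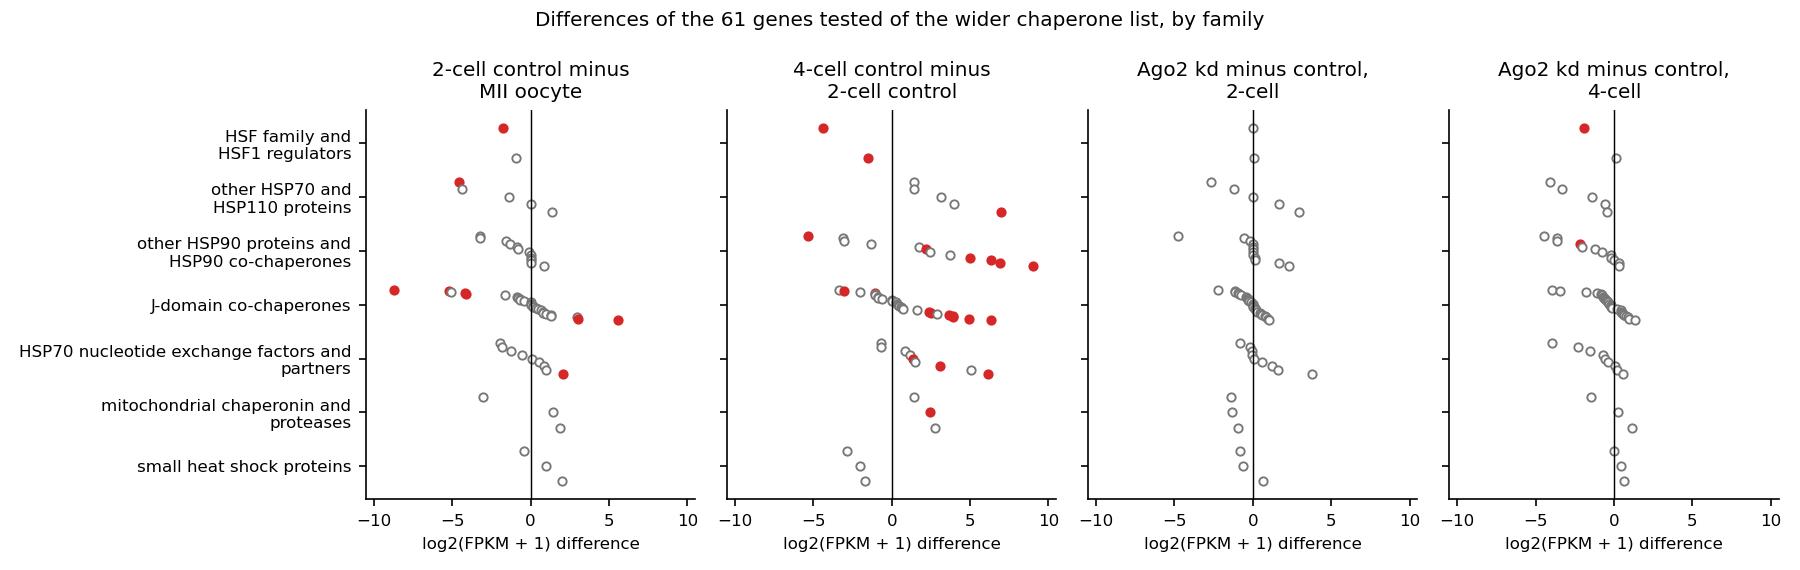
Differences on the log2(FPKM + 1) scale (x axis) of the 61 tested genes of the wider list, by family (y axis), in 4 comparisons. Each point is a gene, filled red where it passed an adjusted p of 0.05. The 17 genes called higher in 4-cell than in 2-cell control embryos lie to the right in the second panel, no gene is called in the 2-cell knockdown panel, and 2 are called in the 4-cell knockdown panel. Points that involve a group listed at 0 depend on the pseudocount.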

How the data were processed

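RNA-seq was performed on 2 libraries each of MII oocytes and of control and Ago2 kd 2-cell and 4-cell embryos, and samples were grouped by their labels. The authors checked and trimmed the reads, aligned them to GRCm38 and computed FPKM with StringTie; the submitters' processing notes name CASAVA 1.4, HISAT2 2.1.0 and mm10. The deposited values are FPKM, 1 per gene name and library, for 21437 genes. Read counts were not analysed here, so that the count test of the study (DESeq2) could not be run and the depth and counting error of each library are unknown. The Ago2 gene itself is not reported here.

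The FPKM were analysed as log2(FPKM + 1) with limma 3.58.1 in R 4.3.3, with 1 mean per group over all 10 libraries, 5 residual degrees of freedom and a trend on the mean. Tested were 8726 genes that reached 1 FPKM in 2 or more libraries. Tests were two-sided with Benjamini-Hochberg adjustment over all genes tested, and the script was tested on simulated data. With 2 libraries against 2 an exact permutation test cannot go below p = 0.333. In 193 genes, 125 of them tested, the identical value of both 2-cell Ago2 kd libraries was used once. Replicate numbers were not treated as a pairing (10 pairs of groups, r from -0.092 to 0.092), although a low r cannot exclude one. Copies were searched with blastn 2.17.0+ in GENCODE M21 transcripts (at least 90% identity over at least 50% of the member).

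The 10 members and the wider list were chosen with earlier results of these data known, and no p was adjusted over the lists alone. The text names the members, per comparison the 3 highest rises and 3 largest falls among called genes of the wider list, and the 5 genes most like Hsf1 and Hspa1a; copies, Hspd1 and Rpl3 were added after their values were seen. Alternatives were a pseudocount of 0.1, no filter, 3 other scalings, a replicate block, only the groups compared and each library left out. Added after seeing the data were identical values kept as deposited and exact zeros set to missing.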

Additional observations from a re-analysis of the deposited data

Results flagged for a closer look

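In 2 genes named above, every Ago2 kd library lay on one side of the controls at the 2-cell stage and on the other side at the 4-cell stage. Knockdown and control groups did not overlap, in either direction, for 29.1% of all genes tested at the 2-cell stage and for 37% at the 4-cell stage. The share of all genes with opposite sides was not computed, so the 2 genes are a description only. For Hspa2 the knockdown effect was -1.05 log2 units at the 2-cell stage, from 1 value, and 3.20 at the 4-cell stage. The difference of the effects was 4.24 log2 units (SE 1.34, limma unadjusted p = 0.02, adjusted p = 0.255). For Ahsa2 the effects were 0.11 and -2.13, and their difference was -2.24 log2 units (SE 0.56, limma unadjusted p = 0.00521, adjusted p = 0.123). Its 2-cell values were all below 1 FPKM, at 0.540 and 0.510 FPKM in Ago2 kd and 0.427 and 0.403 FPKM in control embryos. Neither difference passed the adjustment, although that of Hspa2 did without replicate 2 of the 4-cell Ago2 kd group (5.50, adjusted p = 0.0236). Groups of 2 libraries were too small for a test of single outlying libraries.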

How the results depend on the processing

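The call of Hsp90ab1 from the 2-cell to the 4-cell stage held in all 19 alternatives, as did that of Hspa2, and that of Hsf1 held in the 18 that could be fitted. Members called from MII oocytes to 2-cell control embryos numbered 1 as reported and 0 after rescaling to TPM or quantile normalization. With only the groups compared they numbered 2. Of all 8726 genes, 1805, 1635, 1492 and 1937 were called in these settings, in the same order. From the 2-cell to the 4-cell stage members numbered 3 as reported and 5 after quantile normalization, against 3361 and 3186 of all genes. For the knockdown at the 4-cell stage, 1 member was called as reported, against 341 of all 8726 genes. With only the groups compared 0 members and 0 of all genes were called. Without exact zeros 0 members were called (Hsf1 then could not be fitted), against 79 of 6748 genes. The difference of the knockdown effects had 0 members as reported and 1 with a pseudocount of 0.1, against 196 and 221 of all genes. The wider list had 9 calls from oocyte to 2-cell embryo, 14 with only the groups compared and 5 to 12 with a library left out. From the 2-cell to the 4-cell stage it had 22, with 14 without exact zeros and 14 to 27 with a library left out. For the knockdown at the 2-cell stage it had 0 calls as reported, against 47 of all genes. For the knockdown at the 4-cell stage it had 2, with 1 for a pseudocount of 0.1 or no filter. All genes called in these 3 settings were 341 of 8726, 289 of 8726 and 310 of 20208. With only the groups compared 0 of the list and 0 of all genes were called. Without exact zeros 0 of the list were called, against 79 of 6748 genes. For the difference of the effects it had 0, with 1 for a pseudocount of 0.1, no filter, TPM or only the groups compared, and 0 to 7 with a library left out. Calls over all genes changed with the settings as well, so these changes are no result about the members or the list. Fits with a library left out leave 1 library in a group, and their numbers of calls are not listed. The cause of the changes was not tested.

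Reversed directions concerned differences that were not called as reported. Among them, Hsp90aa1 in the 4-cell knockdown was -3.20 as reported and 0.077 without replicate 1 of the 4-cell Ago2 kd group, and the difference of the effects for Hsph1 was -0.52 as reported and 1.60 without that replicate. Hspe1 from oocyte to 2-cell embryo was 0.95 (TPM), 0.39 (equal medians) and 0.65 (quantile). In the 2-cell knockdown, Hsp90ab1 was 0.013 (TPM) and Hspa1b 0.010 (equal medians) and 0.003 (quantile). In the 4-cell knockdown under quantile normalization Hspa1a was 0.17, Hspa1b 0.19 and Hspe1 0.25. For the difference of the effects, Hspa1b was 0.19 (quantile) and Hspe1 -0.070 (TPM) and -0.096 (equal medians). With a library left out, the ranges that crossed 0 were, from oocyte to 2-cell embryo, -0.19 to 0.41 for Hsf1 and -0.50 to 0.06 for Hspe1. In the 2-cell knockdown they were -0.63 to 1.01 (Hsp90aa1), -0.27 to 0.18 (Hsp90ab1), -0.46 to 0.16 (Hspa1a), -0.43 to 0.39 (Hspa1b) and -0.29 to 0.063 (Hspe1). In the 4-cell knockdown they were -6.47 to 0.077 (Hsp90aa1), -0.36 to 0.36 (Hspa1a), -0.55 to 0.49 (Hspa1b) and -0.24 to 0.21 (Hspe1), and for the difference of the effects -0.21 to 0.51 (Hspa1a), -0.53 to 0.51 (Hspa1b), -0.13 to 0.32 (Hspe1) and -2.63 to 1.60 (Hsph1).

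With the replicate number as a block, 1 gene of the wider list was called in place of 2 in the 4-cell knockdown. Over all genes 242 were called in place of 341. Ahsa2 (limma adjusted p = 0.0684) and Hsf2bp (limma adjusted p = 0.0872) were lost and a gene outside this pair was called. The other counts of members and wider list did not change. Same-numbered libraries did not deviate together (r from -0.092 to 0.092). A low r cannot exclude a shared collection, so whether the numbers pair the libraries is unknown. Where a group was reduced to 1 library, that library was assumed to vary like the other groups.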
